A study of Sorghum bicolor with 12 samples.

Results

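A set of 65 gene loci of the sweet sorghum stem read at least 4-fold higher in the group coded Ds3 than in booting, while the group coded Ds1 read within 2-fold of booting. The loci were chosen from these values among the 33391 loci with a gene name in the water-limiting part of the deposited table: the ratio of Ds3 to booting was 4 or more, Ds3 was 10 FPKM or more, and the ratio of Ds1 to booting lay between 0.5 and 2. Ratios were taken on FPKM + 1 throughout, where FPKM is fragments scaled to transcript length and to library size. One further locus that met these thresholds, Sobic.004G166700, was left out. The high Ds3 and the low Ds1 and booting values therefore define the set, and they are given only as a description. Ds2, which played no part in the choice, and the milky and maturity stages are the values the choice left free, although each comparison with booting uses the same booting libraries as the choice.

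The plants, of the Sorghum bicolor hybrid CSH22SS, were field-grown, and the tissue was the middle internode of the stem. Ds1, Ds2 and Ds3 are 3 groups labelled as booting stage and tied by the table's heading to limited water. The meaning of the code, the dryness reached and whether its numbers are times are not in the labels. Their reference is booting, the stage at which the panicle is still inside the flag-leaf sheath. A separate developmental part of the table holds the same booting libraries, the milky stage and physiological maturity. Each of the 6 groups had 2 libraries, and the authors gave a single combined FPKM for each pair. Without a spread between libraries no difference could be tested, and every comparison describes size only.

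The internode of sweet sorghum elongates, thickens its walls and then stores sucrose in its parenchyma, and it carries water to the panicle. When water is short, plant tissues slow growth and wall building, make protective proteins and compatible solutes, and under longer drying may break down and export nutrients. Genes of these programmes need not respond at the same degree or length of drying. Which programme any of the 65 loci belongs to is not stated here, because the RefSeq gene table matched 0 of their IDs. The loci are therefore named by ID only and no tissue marker could be checked.

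Summed FPKM was 885374 in Ds1, 682190 in Ds2, 647608 in Ds3 and 477138 in booting. The 10 most abundant loci took 29.8% of it in Ds1, 22.8% in Ds2 and 20.6% in Ds3, against 6.51% in booting, so the groups differ in composition. Read depth is unknown. The tissue is a whole internode, so a change in the share of a cell type and a change of RNA within cells cannot be told apart.

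The 65 loci were mostly of low to moderate level. Their median was 3.17 FPKM in Ds1, 13.3 in Ds2 and 20.5 in Ds3, against 2.38 in booting. Their summed FPKM was 816 in Ds1, 2225 in Ds2 and 3171 in Ds3, against 527 in booting. Together they held 0.0922% of all FPKM in Ds1, 0.326% in Ds2 and 0.490% in Ds3, against 0.110% in booting. The total FPKM differs between groups, so the share in Ds1 was below booting while the sum was above it. Ds3 values ran between 10.1 and 613 FPKM, and 5 loci were above 100 FPKM there. In booting 11 of the loci were at 10 FPKM or more, 14 were under 1 FPKM and 3 of these were listed at 0. The median log2(FPKM + 1) difference of Ds3 minus booting was 2.48, with quartiles of 2.15 and 3.15. Across all loci at 10 FPKM or more in either group, 7.31% were higher in Ds3 than booting by 4-fold, and all 65 are so by choice.

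**Figure D1:**
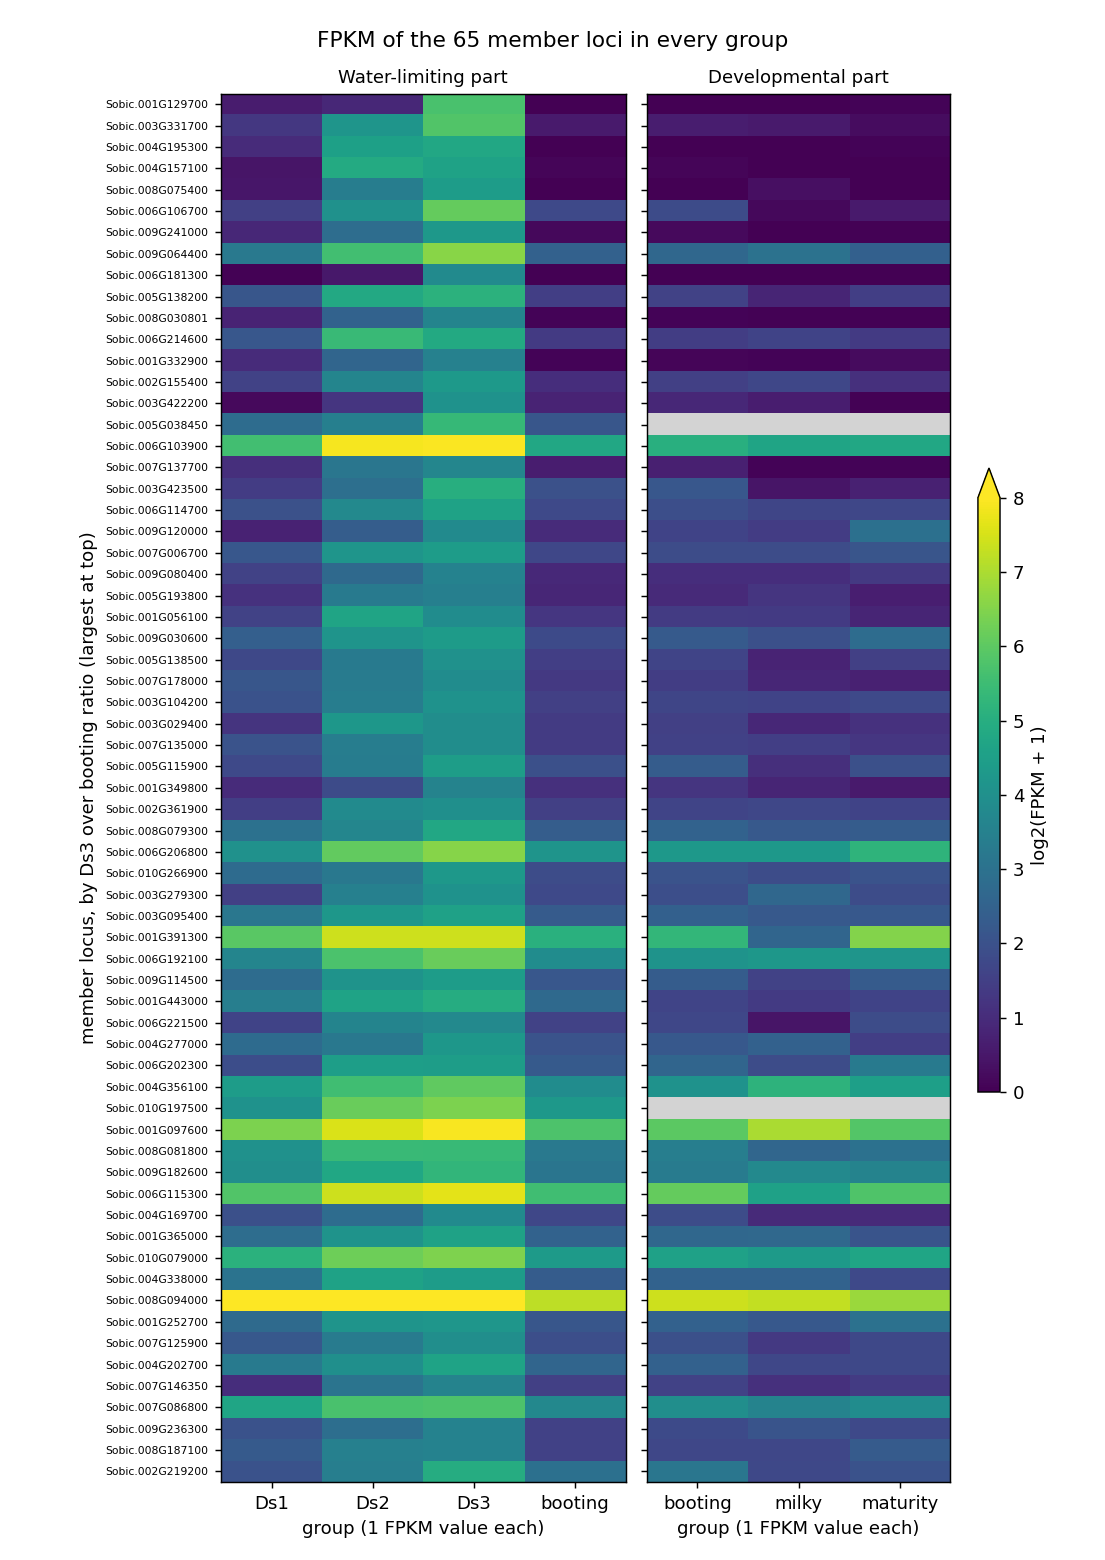
Each row is 1 of the 65 loci, ordered by the ratio of Ds3 to booting, and colour gives log2(FPKM + 1) of the authors' combined value, with grey for 2 loci that have no locus of their own in the developmental part. The Ds3 column is brighter than the Ds1 and booting columns in every row, Ds2 mostly lies near Ds3, and the 3 developmental columns mostly stay near the booting level.

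The 11 loci that booting expressed at 10 FPKM or more showed the smaller ratios, between 4.06 and 8.86, with a median of 4.46. Sobic.008G094000 was the most abundant of the set, with 252 FPKM in Ds1, 355 in Ds2 and 613 in Ds3, against 145 in booting. Its Ds1 value was the highest of the 65 and lay 1.73-fold above booting, and every group expressed it strongly. Sobic.006G103900 stood out among the abundant loci, with 46.5 FPKM in Ds1, 237 in Ds2 and 246 in Ds3, against 26.9 in booting. Its 8.86-fold ratio of Ds3 to booting was the largest of these 11, and Ds2 and Ds3 were nearly equal. Sobic.001G097600 read 85.0 FPKM in Ds1, 187 in Ds2 and 242 in Ds3, against 53.9 in booting. Sobic.006G115300 read 55.6 FPKM in Ds1, 168 in Ds2 and 204 in Ds3, against 45.8 in booting. In both, Ds2 stood further above booting than Ds1 did, and Ds3 was the highest value.

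Of these abundant loci, 3 read slightly below booting in Ds1 and several-fold above it in Ds3. Sobic.006G206800 read 15.4 FPKM in Ds1, 66.8 in Ds2 and 92.3 in Ds3, against 16.6 in booting. Sobic.010G197500 read 15.9 FPKM in Ds1, 71.7 in Ds2 and 84.9 in Ds3, against 18.3 in booting. Sobic.006G192100 read 11.5 FPKM in Ds1, 52.5 in Ds2 and 71.7 in Ds3, against 13.9 in booting. In each of the 3 the low pair, Ds1 and booting, and the high pair, Ds2 and Ds3, were far apart. Sobic.010G079000 read 33.5 FPKM in Ds1, 74.6 in Ds2 and 87.4 in Ds3, against 19.7 in booting. Sobic.004G356100 read 20.6, 45.3 and 65.2 FPKM in Ds1, Ds2 and Ds3, against 13.7 in booting. In both, Ds1 stood somewhat above booting and Ds2 lay between Ds1 and Ds3.

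The 40 loci between 1 and 10 FPKM in booting had a median of 3.41 FPKM in Ds1, 12.2 in Ds2 and 20.2 in Ds3, against 2.45 in booting, and ratios of Ds3 to booting between 4.01 and 20.3. The largest ratios were at 2 loci on separate chromosomes by their IDs. Sobic.006G106700 read 1.83 FPKM in Ds1, 15.7 in Ds2 and 68.4 in Ds3, against 2.42 in booting, a 20.3-fold ratio. Sobic.009G064400 read 8.43 FPKM in Ds1, 47.2 in Ds2 and 93.6 in Ds3, against 4.61 in booting, a 16.9-fold ratio. These 2 loci were low in booting and at the level of the abundant ones in Ds3. Sobic.005G138200 read 3.39 FPKM in Ds1, 27.2 in Ds2 and 34.6 in Ds3, against 1.79 in booting.

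The 14 loci under 1 FPKM in booting held the largest ratios, with a median of 12.9. Sobic.003G331700 read 1.46 FPKM in Ds1, 17.1 in Ds2 and 55.8 in Ds3, against 0.491 in booting, a 38.1-fold ratio. Sobic.004G195300 read 0.975 FPKM in Ds1, 22.3 in Ds2 and 26.8 in Ds3, against 0.0143 in booting. Sobic.004G157100 read 0.370 FPKM in Ds1, 28.4 in Ds2 and 23.7 in Ds3, against 0.0730 in booting. These 3 were almost silent in booting and moderately expressed in both Ds2 and Ds3. Sobic.009G241000 read 0.844, 6.25 and 18.3 FPKM in Ds1, Ds2 and Ds3, against 0.137 in booting. Sobic.008G030801 read 0.722, 4.69 and 11.2 FPKM in Ds1, Ds2 and Ds3, against 0.0518 in booting. Here Ds2 lay between Ds1 and Ds3 in level. Sobic.008G075400 was listed at 0 in booting and read 0.398 FPKM in Ds1, 9.52 in Ds2 and 20.2 in Ds3.

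For these low loci, and for some of the others, the statement that Ds1 read near booting rests on the added 1 FPKM. On plain FPKM, 13 of the 62 loci above 0 in booting were 2-fold or more higher in Ds1 than booting, 5 of them 4-fold or more, and 2 were 2-fold or more lower, Sobic.003G422200 at 0.201 times and Sobic.002G219200 at 0.452 times booting. The 5 read between 0.370 and 0.998 FPKM in Ds1 and at most 0.137 FPKM in booting, values at which 1 FPKM outweighs both. Sobic.004G195300 had the largest plain ratio, 68.0-fold in Ds1 over booting, beside an absolute difference of under 1 FPKM. The 13 were not all low in booting. Sobic.007G086800 read 25.1 FPKM in Ds1 against 12.4 in booting, 2.02-fold on plain FPKM, and Sobic.003G095400 read 7.98 against 3.88, 2.06-fold. With a pseudocount of 0.1 FPKM 49 of the 65 loci still met the thresholds, and with one of 5 FPKM 19 did.

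Within the limits set for Ds1, 50 of the 65 loci read above booting in Ds1 and 15 below it, with a median log2 difference of 0.55. Among all 6361 loci at 10 FPKM or more in either group whose Ds1 value lay within 2-fold of booting, 46.7% read above booting. Only 13 of the 65 reached 10 FPKM in Ds1 or booting, so the 2 sets differ in level. The 2 shares are not a like comparison. Sobic.002G219200 had the lowest ratio of the 15 on FPKM + 1, with 3.05 FPKM in Ds1, 9.65 in Ds2 and 30.1 in Ds3, against 6.76 in booting. Sobic.003G422200 read 0.148 FPKM in Ds1 against 0.738 in booting, and Sobic.003G423500 read 1.68 FPKM in Ds1 against 2.99 in booting. All 3 thus had their lowest water-limiting value in Ds1 and their highest in Ds3. The choice used Ds1, Ds3 and booting, so these counts describe how the members lie inside its limits.

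Ds2 was free of the choice, and there most of the loci stood within 2-fold of their Ds3 level. Ds3 and Ds2 were within 2-fold of each other at 48 of the 65 loci, and within 1.5-fold at 35. At the other 17, Ds3 was 2-fold or more above Ds2. The share of all loci within these limits was not computed, so whether the set lies closer or further apart was not tested. At the wider limit of 4-fold, 0.179% of all loci at 10 FPKM or more in either group were higher in Ds3 than Ds2 and 0.336% lower. The median share of the Ds3 log2 change over booting reached in Ds2 was 77.0% at the 65. It was 91.2% at Ds3-high loci with Ds1 from 2-fold to under 4-fold above booting. With Ds1 at least 4-fold above booting it was 105%. Ds2 lay between Ds1 and Ds3 at 57 loci and above Ds3 at the other 8, and it was above Ds1 at all 65. Among all loci at 10 FPKM or more in either group compared, Ds3 was above Ds2 at 53.2% and Ds2 above Ds1 at 44.0%. The median log2 difference was 0.52 for Ds3 minus Ds2 and 1.54 for Ds2 minus Ds1, where the medians over all loci at 10 FPKM or more in either group were 0.03 and -0.08. The difference between Ds1 and Ds2 was therefore the larger of the 2 at the typical locus of the set. By the size rule (4-fold on FPKM + 1 with at least 10 FPKM in the higher group), 18 of the 65 were higher in Ds2 than Ds1. Of the 65, 39 reached the 10 FPKM that a call needs, and over all loci that reached it 0.831% were called higher. Because the choice required a low Ds1 and a high Ds3, part of this difference is built into the set.

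Against booting, 21 of the 65 loci were higher in Ds2 by the size rule, of 39 that reached 10 FPKM in either group, beside 8.33% of all loci that reached it. This comparison shares its booting libraries with the choice, so the count is not a separate observation from the Ds3 values. By fold alone, 27 loci were at least 4-fold above booting in Ds2, 32 were from 2-fold to under 4-fold above it, and 6 were under 2-fold from it. These counts use no FPKM minimum, so the 8.33% is not their background. The share of all loci in each of the 3 classes was not computed. The first class had medians of 2.01 FPKM in Ds1, 17.1 in Ds2 and 20.4 in Ds3, against 1.79 in booting. The class of 32 had medians of 6.10 FPKM in Ds1, 10.99 in Ds2 and 21.9 in Ds3, against 3.44 in booting. The class of 6 had medians of 0.763 FPKM in Ds1, 1.95 in Ds2 and 23.0 in Ds3, against 0.954 in booting. Median Ds3 levels were close to each other in the 3 classes. The classes were cut on the ratio of Ds2 to booting, so their difference in Ds2 follows from the cut.

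**Figure D2:**
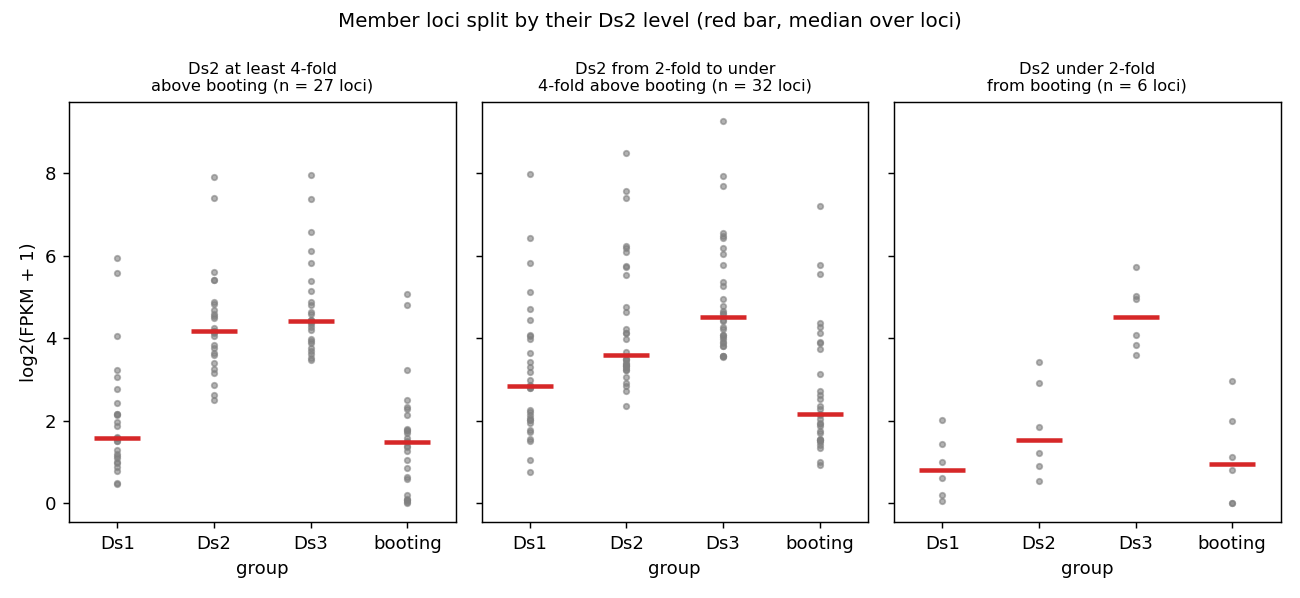
Points are loci and red bars are medians over loci of log2(FPKM + 1) in Ds1, Ds2, Ds3 and booting, for the 27, 32 and 6 loci of the 3 classes of Ds2 over booting. The Ds3 medians lie at similar heights in the panels, and the Ds2 medians differ between panels as the cut on Ds2 fixes. Medians of Ds3 taken on FPKM itself, which the bars do not draw, were 20.4, 21.9 and 23.0.

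A small subset stood far higher in Ds3 than in Ds2. By the size rule 5 of the 65 loci were higher in Ds3 than Ds2, beside 0.179% of all loci at 10 FPKM or more in either group, which is 16 of 8938. None of the 65 was lower in Ds3 than Ds2 by that rule, beside 0.336%. Sobic.001G129700 was the most extreme, with 51.6 FPKM in Ds3 and 0.858 in Ds2, and it read 0.529 FPKM in Ds1 and was listed at 0 in booting. Sobic.006G181300 read 13.2 FPKM in Ds3 and 0.444 in Ds2, and it read 0.0410 FPKM in Ds1 and was listed at 0 in booting. Both were essentially Ds3 transcripts within these libraries. Sobic.003G422200 read 15.95 FPKM in Ds3 and 1.33 in Ds2, a 7.27-fold ratio. Sobic.003G423500 read 31.6 FPKM in Ds3 and 6.57 in Ds2, a 4.31-fold ratio. The fifth, Sobic.006G106700, stood 4.15-fold higher in Ds3 than Ds2 but was also more than 4-fold above booting in Ds2. The choice selected for high Ds3 values, and a value that was high by chance in the Ds3 libraries could not be told apart from these.

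The 6 loci that read under 2-fold from booting in Ds2 were 4 of these 5 and a further pair, named after their values were seen. Sobic.002G219200, given above, read 2.92-fold higher in Ds3 than Ds2. Sobic.001G349800 read 0.998 FPKM in Ds1, 2.58 in Ds2 and 11.1 in Ds3, against 1.17 in booting.

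The opposite pattern, Ds2 above Ds3, was found at 8 loci and was small. Sobic.001G056100 read 13.8 FPKM in Ds3 and 24.4 in Ds2, with 1.97 in Ds1 and 1.41 in booting. Sobic.006G214600 read 28.2 FPKM in Ds3 and 41.5 in Ds2, with 3.47 in Ds1 and 1.56 in booting. Sobic.003G029400 read 14.3 FPKM in Ds3 and 17.8 in Ds2, with 1.29 in Ds1 and 1.63 in booting. In all 3 Ds2 was the highest of the 4 water-limiting values. The ratio of Ds3 to Ds2 at the 8 loci ran between 0.582 and 0.993, so none was 2-fold lower in Ds3. Sobic.004G338000 read 20.4 FPKM in Ds3 and 23.2 in Ds2, and Sobic.004G157100, given above, belongs here too.

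**Figure D3:**
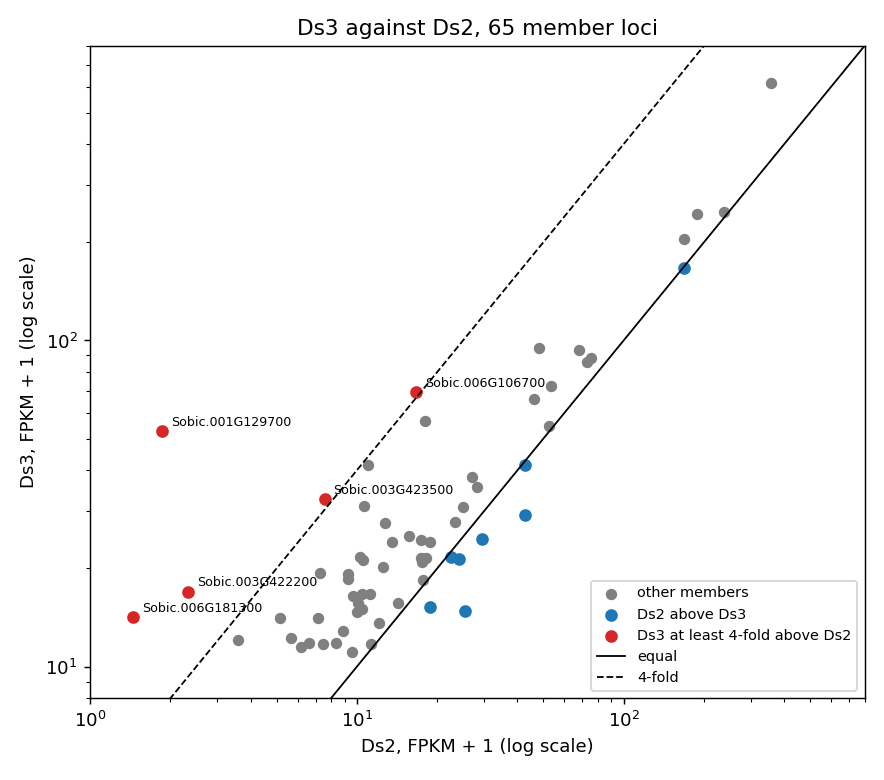
Each point is 1 of the 65 loci, with FPKM + 1 in Ds2 on the horizontal and in Ds3 on the vertical axis, both logarithmic. Most points lie between the solid line of equality and the dashed 4-fold line, 5 loci in red lie at or beyond 4-fold, and 8 in blue lie below equality.

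The set is a small part of the loci that were high in Ds3. Of 751 loci higher in Ds3 than booting by the size rule, 538 were at least 4-fold above booting in Ds1 as well, 145 were from 2-fold to under 4-fold above it, 66 were within 2-fold of it, which are the 65 and the locus left out, and 2 were at or below 0.5 times booting. The 538 loci had medians of 64.4 FPKM in Ds1, 63.2 in Ds2 and 56.1 in Ds3, against 2.83 in booting. The 145 loci had medians of 11.7 FPKM in Ds1, 21.3 in Ds2 and 24.5 in Ds3, against 3.37 in booting. The 66 had medians of 3.28 FPKM in Ds1, 14.0 in Ds2 and 20.6 in Ds3, against 2.40 in booting. Ds3 was above Ds2 at 87.9% of the 66, 66.2% of the 145 and 31.97% of the 538. Of the 16 loci in the table higher in Ds3 than Ds2 by the size rule, 5 were among the 66, 1 among the 145 and 3 among the 538. A further 1 was among the 2 loci at or below 0.5 times booting in Ds1. The rest of the 16 were not among the 751. These classes were cut on the Ds1 value itself, so the differences in Ds1 follow from the cut and the others are descriptions.

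In the developmental part, where neither milky nor maturity entered the choice, most of the loci lay within 2-fold of their booting level, as most genes did. Of the 65, 63 had a locus of their own there, and the other 2 were merged into loci of several genes. Their medians were 2.60 FPKM in booting, 2.08 in milky and 2.33 in maturity. At the milky stage 20 of the 63 loci read above booting, 42 below and 1 equal, beside 48.3% of all genes above, and the median log2 difference was -0.19, where it was -0.02 over all genes, meaning the 14379 that averaged 1 FPKM or more in each part. In maturity 19 read above booting, 43 below and 1 equal, beside 50.7% of all genes above, with a median of -0.10 and one of 0.01 over all genes. Only 50 of the 63 reached a mean of 1 FPKM in the developmental part, and the medians over the 63 include the others. Within 2-fold of booting were 55 of the 63 in milky and 58 in maturity. Of all genes, 2.95% were 2-fold or more higher and 5.81% lower in milky, and 0.376% and 3.64% in maturity. Under 1 FPKM were 12 of the 63 in booting, 20 in milky and 18 in maturity, where the added 1 FPKM limits the ratio. These medians were also taken over the set that each alternative setting chose anew. Quantile normalization gave -0.075 in milky and 0.0024 in maturity, over a set of 76 loci with 64 of the 65 kept. A pseudocount of 5 FPKM gave -0.011 and -0.020, over 41 loci with 19 of the 65 kept. With a pseudocount of 0.1 FPKM the medians were -0.24 and -0.10. With a minimum of 20 FPKM they were -0.22 and -0.13, and with median-of-ratios scaling -0.17 and -0.092. Neither difference was thus stable in size across all settings, and the sign in maturity was not stable. The part due to scaling and the part due to changed membership were not separated.

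Only 11 of the 63 loci reached the 10 FPKM that a call by the size rule needs, in milky or booting and likewise in maturity or booting, and 1 of them passed it at a developmental stage. Sobic.001G391300 read 38.0 FPKM in booting, 5.08 FPKM in milky and 91.4 FPKM in maturity, and was lower in milky than booting, where 1.18% of all loci that reached 10 FPKM were lower and 0.781% higher. In the water-limiting part it read 60.9 FPKM in Ds1, 167 in Ds2 and 166 in Ds3, against 32.8 in booting. No other of the 63 lay as far from booting in milky. None of the 11 passed it in maturity, where 0.0401% of all loci that reached 10 FPKM were higher and 0.912% lower than booting.

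At the looser limit of 2-fold, 1 locus was higher and 7 were lower in milky than booting, and 2 were higher and 3 lower in maturity. Of all genes, 2.95% were higher and 5.81% lower by this limit in milky, and 0.376% were higher and 3.64% lower in maturity. The loci past this limit were named after their values were seen. Sobic.003G423500 read 3.47 FPKM in booting, 0.377 in milky and 0.679 in maturity. Sobic.006G106700 read 2.53 FPKM in booting, 0.132 in milky and 0.477 in maturity. Sobic.002G219200 read 7.84 FPKM in booting, 2.31 in milky and 3.03 in maturity. These 3 were the loci lower by this limit at both later stages. Sobic.009G120000 was the locus besides Sobic.001G391300 that was higher in maturity, with 2.05 FPKM in booting, 1.70 in milky and 6.75 in maturity. Sobic.004G356100 was the one higher in milky, with 15.9 FPKM in booting, 35.4 in milky and 21.9 in maturity. Both later stages are set against the same booting libraries.

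**Figure D4:**
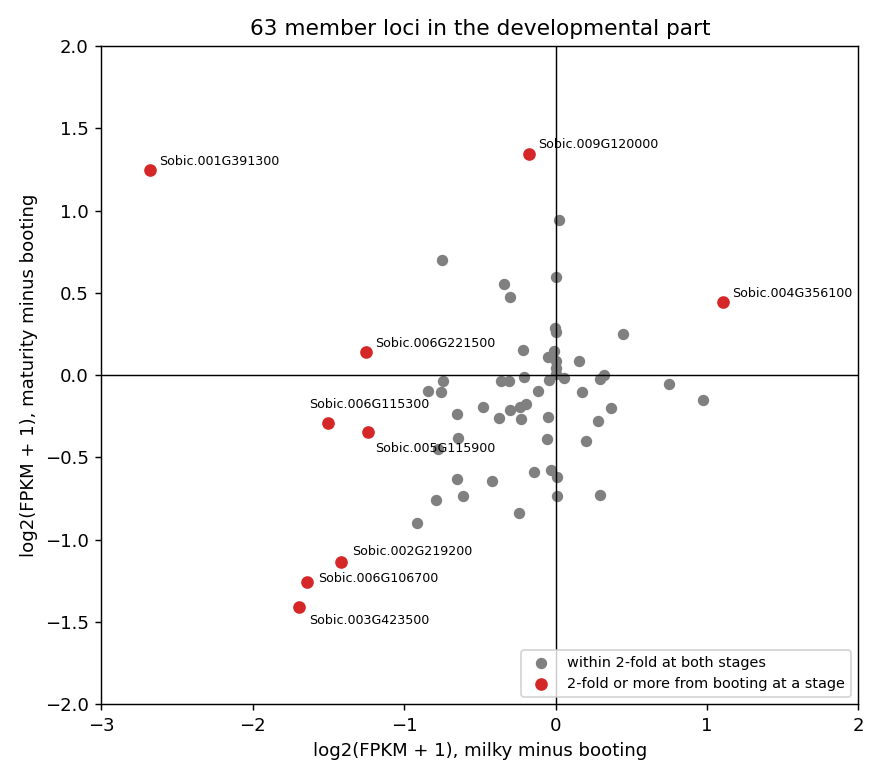
Each point is 1 of 63 loci, with the difference in log2(FPKM + 1) of milky minus booting on the horizontal axis and of maturity minus booting on the vertical axis. Most loci lie within 2-fold of booting at both stages, 3 lie low at both, and Sobic.001G391300 lies at -2.68 in milky and 1.25 in maturity.

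The booting libraries were quantified separately by the authors in each part, which shows how far the reference value of each locus depends on that processing. Over those 14379 genes the ratio of the water-limiting to the developmental booting value had a median of 0.863. After scaling by this ratio, the 2 booting values on FPKM + 1 were within 1.2-fold at 57 of the 63 loci and 1.5-fold or more apart at 1. That locus, Sobic.001G443000, read 9.78 FPKM in Ds1, 24.0 in Ds2 and 29.8 in Ds3, against 5.60 in booting of the same part, but booting read 2.14 in the developmental part. With the scaled developmental value as reference its Ds1 ratio would be 3.78, outside the limit of 2. In all, 58 of the 63 met the thresholds with that reference. The other 4 that did not were Sobic.006G115300, Sobic.001G252700, Sobic.008G187100 and Sobic.009G236300, whose Ds3 ratios came to between 3.46 and 3.98.

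The loci were spread over all 10 chromosomes, as numbered in their IDs. Chromosome 6 held 10 of the 65, chromosome 1 held 9 and chromosome 9 held 8, whereas chromosomes 2 and 10 held 3 each. Chromosome 6 carried 15.4% of the set and 8.63% of loci at 10 FPKM or more in Ds3 or booting, and chromosome 2 carried 4.62% and 12.4%. No 2 of the loci were adjacent in the order of gene numbers. The closest were Sobic.005G138200 and Sobic.005G138500 on chromosome 5, with 1 gene between them. Sobic.005G138300, that gene, read 8.22 FPKM in Ds1, 9.999 in Ds2 and 8.89 in Ds3, against 5.61 in booting. Sobic.006G114700 and Sobic.006G115300 on chromosome 6 had 5 genes between them, and Sobic.003G422200 and Sobic.003G423500 on chromosome 3 had 11. Of the genes between, 4 on chromosome 3, 3 on chromosome 6 and 0 on chromosome 5 reached the 10 FPKM that a call needs. Among them 0 were higher in Ds3 by the size rule, beside 7.31% of all loci. So few genes cannot show a difference from that share. Both loci of the chromosome 3 pair belong to the 5 that were higher in Ds3 than Ds2.

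The genes listed next to the loci were examined in the same way. Of 129 genes listed directly beside a member, 45 were at 10 FPKM or more in Ds3 or booting, and 3 of these, or 6.67%, were higher in Ds3 by the size rule, near the background of 7.31%. Sobic.009G182500, beside Sobic.009G182600, read 13.8 FPKM in Ds1, 34.7 in Ds2 and 32.1 in Ds3, against 3.93 in booting. Sobic.009G236400, beside Sobic.009G236300, read 135 FPKM in Ds1, 226 in Ds2 and 261 in Ds3, against 51.6 in booting. Sobic.010G267000, beside Sobic.010G266900, read 137 FPKM in Ds1, 127 in Ds2 and 68.1 in Ds3, against 1.66 in booting. In each of these 3 pairs the neighbour was above booting in Ds1, by more than its member was. Whether reads are shared between such neighbours was not tested, and the strand setting of the quantification is not stated in the labels or headers.

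The limits of the set cut through a continuous range. For the ratio of Ds3 to booting, the nearest loci inside were Sobic.002G219200 at 4.01, Sobic.008G187100 at 4.02 and Sobic.009G236300 at 4.05, and the nearest outside were Sobic.006G132100 at 3.98, Sobic.002G260600 at 3.96 and Sobic.002G245400 at 3.95. For the Ds3 level, Sobic.005G193800 at 10.1 FPKM, Sobic.001G332900 at 10.5 and Sobic.009G236300 at 10.7 were just inside. Sobic.003G318800 at 9.96 FPKM, Sobic.006G004300 at 9.28 and Sobic.007G073900 at 9.16 were just outside. For the upper limit on Ds1 over booting, Sobic.004G195300 and Sobic.007G086800, both at 1.95, and Sobic.010G266900 at 1.91 were just inside, and Sobic.003G086300 at 2.003, Sobic.004G256200 at 2.005 and Sobic.001G012800 at 2.02 just outside. At the lower limit the nearest inside were Sobic.002G219200 at 0.522, Sobic.003G422200 at 0.661 and Sobic.003G423500 at 0.673, and the only loci outside that met the other limits were Sobic.007G001100 at 0.483 and Sobic.003G287000 at 0.272. Moving the Ds3 ratio to 3-fold gave 132 loci and moving it to 8-fold gave 19.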

How the data were processed

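Total RNA, isolated with Trizol, went into TruSeq Stranded Total RNA libraries, per the labels' protocols. The authors deposited FPKM, 1 value for each group of 2 libraries, in 2 separately scaled parts (34458 developmental and 34718 water-limiting loci). The second booting column, bookkept as an other unit, is also FPKM the authors deposited. The submitters' processing notes name Bowtie2 2.2.9, Cuffdiff, cutadapt 1.8.1 and HISAT2 2.0.5. No source used here states the genome build.

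Ratios and log2 differences were computed on FPKM + 1 within a part, which understates changes of low loci, with Python 3.11.15 and pandas 2.3.3. With 1 value per group, the planned limma test was not possible. The code was tested on simulated data. The members, lists and thresholds were chosen with earlier results of these data known. Loci named are the 12 highest in Ds3, the 12 with the largest Ds3 ratio, 5 at each end of Ds2 over Ds3, those past the size rule in development, and those at thresholds. Planned product-name lists could not be filled. Alternatives were other pseudocounts, minima, folds, scalings and the developmental booting value.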

Additional observations from a re-analysis of the deposited data

Results flagged for a closer look

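Loci without a gene name were outside the set, and 4 of the 1327 in the water-limiting part met the same thresholds on Ds3, Ds1 and booting. The strongest read 1.10 FPKM in Ds1, 8.05 in Ds2 and 27.9 in Ds3, against 0.0648 in booting. A second read 5.07 FPKM in Ds1, 24.7 in Ds2 and 21.2 in Ds3, against 2.98 in booting. They have no replicate check and no name in the deposited table.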

How the results depend on the processing

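The count of 65 loci depends on the thresholds more than on the scaling. It was 41 with a pseudocount of 5 (19 of the 65 kept), 130 with no minimum FPKM, 36 with at least 20 FPKM, 132 at 3-fold, 19 at 8-fold and 31 with Ds1 within 1.5-fold. It was within 1.5 times of 65 with a pseudocount of 0.1 (64, of which 49 kept), median-of-ratios scaling (64, 63 kept), quantile normalization (76, 64 kept) and the scaled developmental booting value (63, 58 kept). Without loci of shared or several gene names in either part it was 63. In the water-limiting part 0 of the 65 had such names, and 2 lay in loci of several genes in the developmental part.

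Applied to the set each setting gives, the count higher in Ds2 than booting (21) was 57 with no minimum FPKM and 10 with at least 20 FPKM. The median log2 difference of Ds2 minus booting (1.94) was 2.07 with a pseudocount of 5 and 2.01 under quantile normalization. For milky minus booting (-0.19) it was -0.011 with a pseudocount of 5, -0.056 with no minimum and -0.075 under quantile normalization. For maturity minus booting (-0.10) it was -0.020, -0.050 and 0.0024 under the same 3 settings. Both developmental medians stayed close to the reported values with a pseudocount of 0.1, at least 20 FPKM and median-of-ratios scaling. The cause of the shifts was not tested, beyond the different loci each setting admits. The count past the size rule in development was 1 under all 7 settings run for it.

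No paired analysis was possible because the table holds 1 combined value per group, and leaving out a replicate was not possible for the same reason. Read depth is unknown.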
